A study of Mus musculus with 6 samples.

Results

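The genes described here are the interferon-induced transmembrane (IFITM) genes Ifitm1, Ifitm2, Ifitm3 and Ifitm6 together with Ifi27l2a, the mouse Ifi27-like 2A gene. They were chosen by name, through the gene name that the array files give each probe. Of these 5 genes, 4 were measured, and Ifitm2 was not analysed here. The 4 measured genes had 5 probes of 56605 on the array, and they were 4 of the 19500 genes tested. All 5 probes lay well above background on all 6 arrays. In the files the name Ifi27 belongs to a pair of probes whose transcript is that of another gene, Ifi27, so these are described separately and are not counted as Ifi27l2a. Taking them by the older name Ifi27 would give 7 probes.

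The samples were monocytes purified by magnetic sorting from bone marrow of C57BL/6J mice aged 6 to 8 weeks. The IFN-beta group was cultured with 100 U of the type I interferon IFN-beta on top of M-CSF (20 ng/mL), a growth factor of the macrophage lineage, and harvested after 60 h. The control group had the same M-CSF for the same time but no interferon, so every sample had been exposed to M-CSF. Each group had 3 samples, each hybridised to a 1-colour Agilent array, and the labels do not state whether the replicates stem from different animals or cultures; the p-values therefore measure only the spread between these samples, which may be technical. No genotype, transgene or deletion is given for either group.

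IFITM proteins are small membrane proteins that interferons induce in many cell types. They sit in the plasma membrane and in endosomes and hinder the fusion of enveloped viruses with the host membrane, a role best known for human and mouse IFITM3. Type I interferon acts through the receptor chains Ifnar1 and Ifnar2 and the kinases Jak1 and Tyk2 on a complex that contains Stat2 and Irf9 and binds the interferon-stimulated response element (ISRE) in promoters. Ifi27l2a encodes a small hydrophobic protein of the separate Ifi27 family and is itself a known interferon-stimulated gene.

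The promoters of the 3 measured IFITM genes are shown because their changes differed: Ifitm3 and Ifitm6 rose with IFN-beta, and Ifitm1 did not pass the test. Each runs 5′ to 3′ along its gene, 250 bases before the start of transcription and 50 bases from it on, in RefSeq's annotation of GRCm38.p6. Ifitm3 lies on the minus strand at chr7:141010695-141010994, Ifitm6 on the minus strand at chr7:141016843-141017142, and Ifitm1 on the plus strand at chr7:140967826-140968125. Capitals mark matches to the ISRE letters, GAAA followed after any 2 bases by a second GAAA, searched on both strands.
Ifitm3: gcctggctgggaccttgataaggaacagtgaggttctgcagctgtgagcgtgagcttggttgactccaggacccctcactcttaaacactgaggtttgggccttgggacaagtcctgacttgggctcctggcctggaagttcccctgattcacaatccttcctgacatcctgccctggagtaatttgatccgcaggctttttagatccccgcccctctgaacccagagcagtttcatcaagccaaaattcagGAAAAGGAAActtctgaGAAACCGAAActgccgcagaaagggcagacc
Ifitm6: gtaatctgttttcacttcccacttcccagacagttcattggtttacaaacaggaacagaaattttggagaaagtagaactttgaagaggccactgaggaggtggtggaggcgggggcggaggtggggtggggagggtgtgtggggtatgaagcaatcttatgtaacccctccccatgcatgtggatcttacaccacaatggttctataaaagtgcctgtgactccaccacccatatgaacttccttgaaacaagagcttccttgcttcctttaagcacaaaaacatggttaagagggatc
Ifitm1: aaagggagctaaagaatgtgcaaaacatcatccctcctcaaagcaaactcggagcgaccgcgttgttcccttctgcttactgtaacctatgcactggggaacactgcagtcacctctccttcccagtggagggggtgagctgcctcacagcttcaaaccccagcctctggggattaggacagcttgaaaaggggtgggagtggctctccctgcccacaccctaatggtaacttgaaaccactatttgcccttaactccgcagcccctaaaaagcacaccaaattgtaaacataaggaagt
The Ifitm3 window held 2 such matches, GAAAAGGAAA at bases 3 to 12 and GAAACCGAAA at bases 20 to 29, counted from 1 at the transcription start. The Ifitm6 and Ifitm1 windows held 0 each. The Ifitm2 window, whose transcript was not measured, held 1 match, GAAAAGGAAA, 46 to 37 bases before the start. Across all promoter windows of the same length, 1131 of 32851 (3.44%) held a match. The letters TTCNNNGAA, those of the gamma-activated site (GAS), were also searched on both strands. They were found at bases 14 to 22 of the Ifitm3 window as TTCTGAGAA, which overlaps the second ISRE match by its last bases, and 10 to 2 bases before the start of Ifitm6 as TTCCTTGAA, but not in the Ifitm1 window, against 2726 of 32851 windows (8.3%) in all. A match describes the letters of a window, and the absence of one says nothing about the factor. Promoter windows were matched for 4 of the 5 genes, all but Ifi27l2a.

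The comparison asked how IFN-beta alters the transcripts of monocytes kept in M-CSF. Levels are the log2 processed signal of a probe minus the log2 of the array's 75th percentile, a scale on which 1 probe can be followed across arrays but different probes cannot be ranked. Fold changes are IFN-beta minus control, fitted with limma over all 19500 genes, and p-values are adjusted by Benjamini-Hochberg over these genes with a threshold of 0.05. Of the 4 measured genes 3 rose and none fell. Among all genes tested, 11.8% were called higher and 8.03% lower, so 19.8% were called in either direction. The same 3 members were called higher against control 3 alone, where 7.97% of all genes were called higher and 16.7% in either direction, and against controls 1 and 2, where 33.1% were called higher and 48.2% in either direction. The median change of all genes was 0.10.

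Some features of the arrays bear on every value. The 75th percentile of the signal was 236 to 244 on the IFN-beta arrays, against 549, 528 and 305 on controls 1, 2 and 3. Between 49% and 52.5% of probes lay well above background on the IFN-beta arrays, against 63.9%, 63.3% and 52.5% on the 3 controls, and no spot was saturated. Control 3 stood apart from controls 1 and 2: across genes, which are not independent replicates, it correlated at r = 0.963 to 0.966 with the IFN-beta arrays, against 0.957 and 0.956 with controls 1 and 2, while controls 1 and 2 correlated at 0.994 with each other. Fibroblast markers were bright on controls 1 and 2 alone. Some erythroid and endothelial markers, such as Hba-a1 and Emcn, were also highest on these controls. Each member's change is therefore also given against control 3 on its own and against controls 1 and 2, and that of relatives, pathway genes and neighbouring genes against control 3 where it changes a call. Slide 1 held IFN-beta 1 and all 3 controls, and slide 2 held IFN-beta 2 and 3, with the scans split the same way.

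Ifitm3, the family member best known for restricting viruses that enter through endosomes, had the highest fold change among the probes that stood for the members. Its probe lies at chr7:148195489-148195548 on the minus strand (mm9, as in the files) and represents NM_025378. Its levels were 7.01, 7.07 and 6.97 on IFN-beta arrays 1, 2 and 3, against 5.16, 5.13 and 5.46 on controls 1, 2 and 3. The IFN-beta arrays lay close together and all above the controls, of which control 3 was the highest. The group means were 7.02 ± 0.05 with IFN-beta and 5.25 ± 0.18 in controls (SD, n = 3 each). Ifitm3 rose by 1.76 ± 0.17 on the log2 scale (SE, limma adjusted p = 0.000515), which is 3.4-fold with a 95% interval of 2.6 to 4.43. Against control 3 alone the change was 1.55 ± 0.13 (limma adjusted p = 0.00171), and against controls 1 and 2 it was 1.87 ± 0.11 (limma adjusted p = 0.000109). Within slide 1 the single IFN-beta array exceeded its controls by 1.76 ± 0.28, which did not pass the threshold (limma adjusted p = 0.0601). In that smaller fit 1.89% of all genes were called in either direction, 1.28% higher and 0.61% lower.

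Ifitm6, a mouse gene of the same chromosome 7 cluster, rose as well, but less against control 3 than against the other controls. Its probe lies at chr7:148201714-148201773 on the minus strand (mm9) and represents NM_001033632. The levels were 5.60, 5.44 and 5.10 on IFN-beta arrays 1, 2 and 3, against 3.64, 3.55 and 4.44 on controls 1, 2 and 3. All IFN-beta arrays again lay above all controls, and the gap between the lowest IFN-beta array and control 3 was the narrowest among the 3 members that rose. Ifitm6 rose by 1.51 ± 0.27 (SE, limma adjusted p = 0.00875), or 2.85-fold with a 95% interval of 1.84 to 4.41. The change was 0.95 ± 0.22 against control 3 (limma adjusted p = 0.037) and 1.79 ± 0.17 against controls 1 and 2 (limma adjusted p = 0.000754). With the slide as a block it was 1.73 ± 0.40 (limma adjusted p = 0.0641), and within slide 1 it was 1.73 ± 0.43 (limma adjusted p = 0.144), so neither passed the threshold. When the arrays were scaled on the spike-in probes, the change against control 3 was 0.54 ± 0.27 and did not pass (limma adjusted p = 0.136).

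Ifitm1, whose human counterpart sits mainly in the plasma membrane, did not differ between the groups beyond the spread of the arrays. Its probe lies at chr7:148155659-148155718 on the plus strand (mm9) and represents NM_001112715. The levels were 4.35, 4.13 and 3.64 on IFN-beta arrays 1, 2 and 3, against 3.73, 3.61 and 4.29 on controls 1, 2 and 3. The groups overlapped, with IFN-beta 3 below control 1 and control 3 above IFN-beta 2. The difference was 0.16 ± 0.26 (SE, limma adjusted p = 0.694), with a 95% interval of -0.45 to 0.76, which spans folds of 0.734 to 1.7. Against control 3 it was -0.26 ± 0.28 (limma adjusted p = 0.563) and against controls 1 and 2 it was 0.37 ± 0.22 (limma adjusted p = 0.218). The sign also turned under quantile normalization (-0.005) and spike-in scaling (-0.15). Before scaling, the processed signals were 4980, 4130 and 3000 on the IFN-beta arrays, against 7270, 6450 and 5990 on the controls.

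Ifi27l2a had 2 probes, and the transcript rose by both. The probe with the higher signal represents transcript variant 1 (NM_029803) and lies at chr12:104680394-104680453 on the minus strand (mm9). It measured 6.86, 6.83 and 6.71 on IFN-beta arrays 1, 2 and 3, against 5.49, 5.39 and 5.67 on controls 1, 2 and 3. Neither group spread by more than a small part of the gap between them. The rise was 1.28 ± 0.16 (SE, limma adjusted p = 0.00176), or 2.43-fold with a 95% interval of 1.88 to 3.15. It was 1.13 ± 0.14 against control 3 (limma adjusted p = 0.00578), 1.36 ± 0.11 against controls 1 and 2 (limma adjusted p = 0.000453), and 1.34 ± 0.27 within slide 1 (limma adjusted p = 0.0905, past no threshold). The other probe represents transcript variant 2 (NM_001281830) and lies at chr12:104672083-104672142 on the same strand. It measured -0.35, -0.49 and -0.37 on the IFN-beta arrays, against -3.08, -3.01 and -2.22 on the controls, again without overlap. By this probe the rise was 2.37 ± 0.25, or 5.16-fold (limma over probes, adjusted p = 0.000704, where 13.7% of 29794 probes were called higher), and it was 1.82 against control 3 (adjusted p = 0.00146 over probes). The variant 2 probe thus gave a larger fold change than the variant 1 probe. Its processed signal was low, 168 to 192 with IFN-beta and 65.2 to 65.7 in controls.

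**Figure D1:**
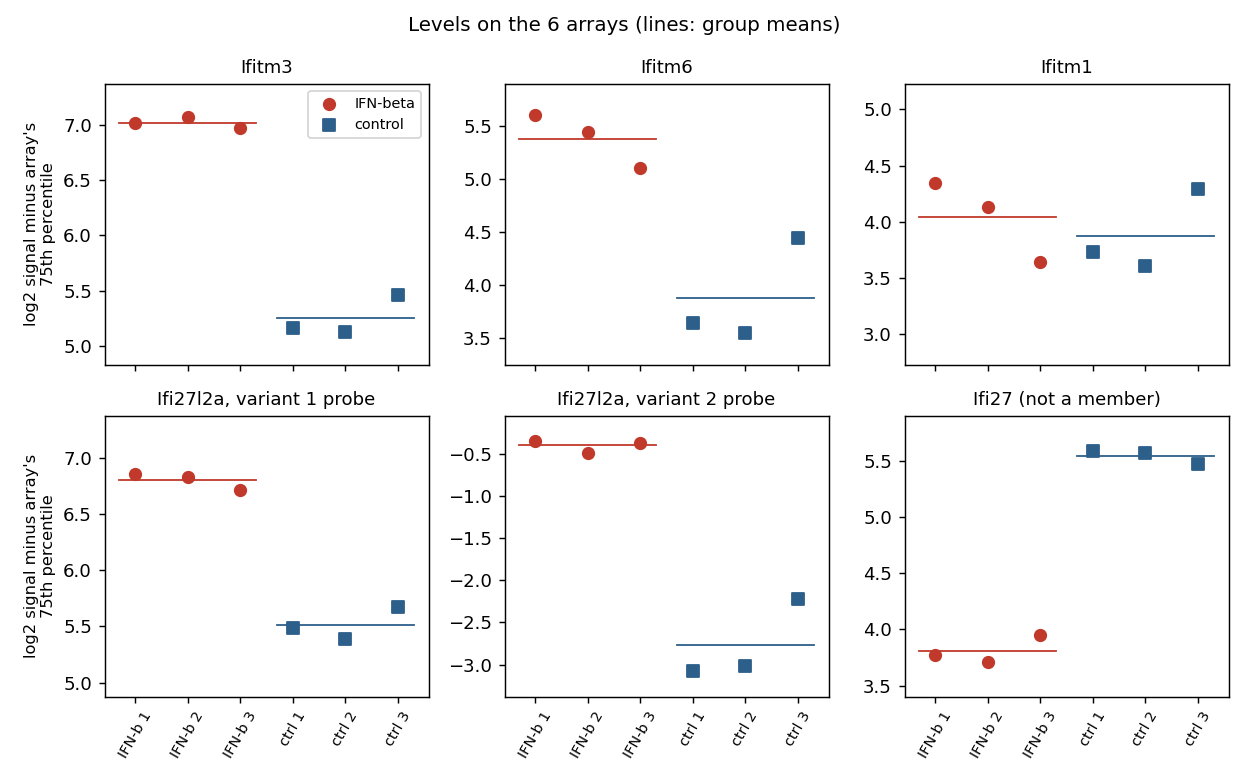
Log2 processed signal minus the array's 75th percentile on each of the 6 arrays for Ifitm3, Ifitm6, Ifitm1, the 2 probes of Ifi27l2a and Ifi27, a separate gene, with IFN-beta arrays as circles, controls as squares and horizontal lines at the group means; each panel has its own vertical axis, so heights are not comparable between panels. The IFN-beta arrays lie above all controls for Ifitm3, Ifitm6 and both Ifi27l2a probes, the groups overlap for Ifitm1, and the IFN-beta arrays lie below all controls for Ifi27.

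The groups did not overlap for Ifitm3, Ifitm6 and Ifi27l2a, with all IFN-beta arrays above all controls. Over all genes tested, 40.2% had groups that did not overlap, and 23.4% had every IFN-beta array above every control. Control 3 was the highest control for all 4 measured genes. By the probes that stood for the genes, it exceeded controls 1 and 2 least for Ifi27l2a, at 5.67 against 5.49 and 5.39, and most for Ifitm6, at 4.44 against 3.64 and 3.55. By the variant 2 probe of Ifi27l2a, control 3 was at -2.22, against -3.08 and -3.01 on controls 1 and 2.

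The members were then compared with each other through the difference of 2 members on each array, in which scaling by any constant per array cancels. Over the 6 pairs, the exact permutation test over 3 against 3 arrays, two-sided, cannot give a p below 0.10, so no pair could pass a threshold of 0.05. Ifitm1 changed by 1.60 less than Ifitm3 on the log2 scale (difference -1.60 ± 0.22, SE), by -1.35 ± 0.10 relative to Ifitm6 and by -1.12 ± 0.21 relative to Ifi27l2a. Each of these 3 differences separated all IFN-beta arrays from all controls and had the smallest p possible (exact permutation p = 0.1, Benjamini-Hochberg adjusted 0.15). The change of Ifitm3 exceeded that of Ifi27l2a by 0.48 ± 0.05, also without overlap (exact permutation p = 0.1, adjusted 0.15). Ifitm3 against Ifitm6 (0.26 ± 0.22) and Ifitm6 against Ifi27l2a (0.23 ± 0.23) did not differ beyond the spread of the arrays (exact permutation p = 0.4 each). These pairs use the variant 1 probe of Ifi27l2a. By the variant 2 probe (2.37) and by the mean of its probes (1.82) the change of Ifi27l2a was larger than that of Ifitm3 (1.76) and of Ifitm6 (1.51), so the direction of both pairs turned; these differences were not tested. With control 3 as the only control, the 3 differences of Ifitm1 were -1.81, -1.21 and -1.39, and Ifitm6 minus Ifi27l2a turned to -0.18.

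**Figure D2:**
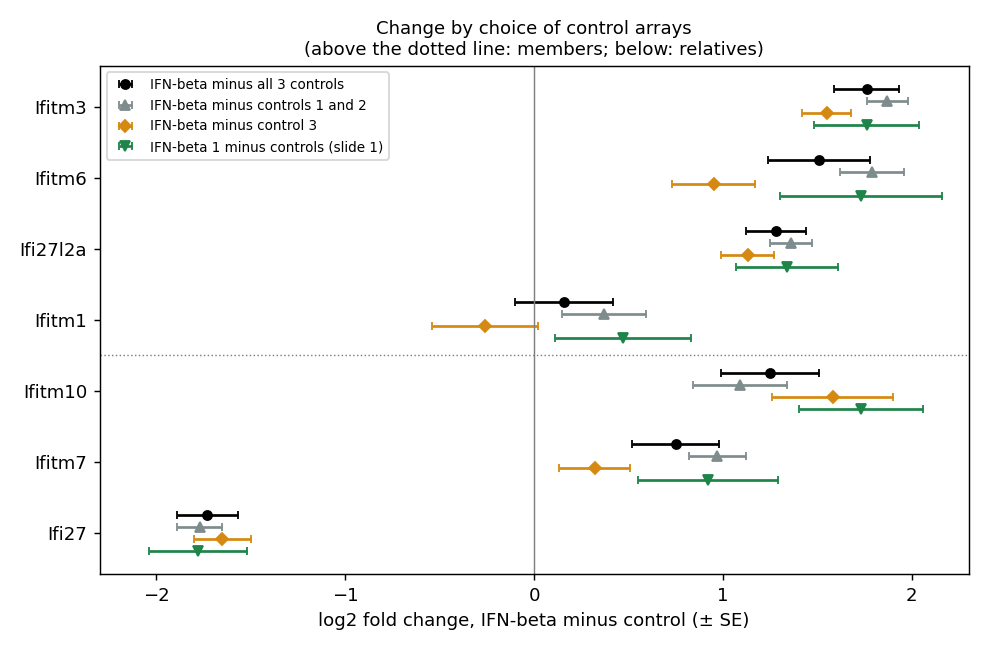
Log2 fold change of IFN-beta over control, with its standard error, for the 4 measured members above the dotted line and 3 relatives below it; the 4 symbols per gene stand for all 3 controls, controls 1 and 2, control 3 alone, and IFN-beta 1 against the controls of its own slide. Ifitm3 lies between 1.55 and 1.87 in all 4 comparisons, Ifitm6 between 0.95 and 1.79, Ifi27l2a between 1.13 and 1.36, and Ifitm1 on either side of 0, from -0.26 to 0.47.

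IFITM genes are alike in sequence, and each of these genes but Ifi27l2a rests on a single probe of 60 bases. The most similar pair of members' probes is shown, as the genes of this pair gave different results; capitals mark the bases that are identical in the aligned stretch, bases 15 to 44 of the Ifitm1 probe and 18 to 47 of the Ifitm3 probe.
Ifitm1: ATCTgTCCAtgGTGGAcTCAATAAAGTGCA
Ifitm3: ATCTaTCCAcaGTGGAtTCAATAAAGTGCA
In this stretch 26 of 30 bases were identical. Over the whole ungapped overlap of the probes 40 of 57 bases (70.2%) matched, with a longest run of 14. Ifitm3 rose and Ifitm1 did not pass the test, as given above. How far a probe takes up the transcript of a relative was not tested.

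The probes named Ifi27 showed the opposite direction to Ifi27l2a. Ifi27, a mitochondrial and nuclear-envelope protein of the same family that interferon induces in human cells, is represented by NM_026790, with probes at chr12:104678353-104678412 and between positions 104675679 and 104675889 on the plus strand (mm9). Both lie between the positions of the 2 Ifi27l2a probes, which are on the minus strand. By the brighter probe Ifi27 measured 3.77, 3.71 and 3.95 on IFN-beta arrays 1, 2 and 3, against 5.59, 5.57 and 5.47 on controls 1, 2 and 3. Here control 3 lay with controls 1 and 2, and all IFN-beta arrays lay below them. Ifi27 fell by 1.73 on the log2 scale (difference -1.73 ± 0.16, SE, limma adjusted p = 0.000452), or 3.32-fold. The difference was -1.65 ± 0.15 against control 3 (limma adjusted p = 0.00227), -1.77 ± 0.12 against controls 1 and 2 (limma adjusted p = 0.000222) and -1.78 ± 0.26 within slide 1 (limma adjusted p = 0.0484). The second Ifi27 probe measured 0.45, 0.42 and 0.30 with IFN-beta, against 2.64, 2.62 and 2.17 in controls, a difference of -2.08 ± 0.19 (limma over probes, adjusted p = 0.000358, where 7.82% of probes were called lower). In their best ungapped alignments, the brighter Ifi27 probe matched the variant 1 and variant 2 probes of Ifi27l2a at 20 of 57 and 20 of 51 bases.

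Of the other genes near Ifi27l2a, within 100000 bases of its probes, Ddx24, an RNA helicase gene, rose by all 3 of its probes, by 1.22 ± 0.17, 1.14 ± 0.20 and 0.87 ± 0.15 (limma over probes, adjusted p = 0.00267, 0.00794 and 0.00673). Otub2, a deubiquitinase gene, gave 0.22 ± 0.16 (adjusted p = 0.339 over probes). Ifi27l2b, a further Ifi27-like gene, was well above background on controls 1 and 2 only and was not tested. In the IFITM cluster on chromosome 7, Ifitm5, a bone-specific member, was not well above background on any array. Around the cluster, Pkp3, which encodes a desmosomal plaque protein, rose by 1.71 ± 0.20 (limma over probes, adjusted p = 0.00108). Sigirr, an inhibitory receptor of the interleukin-1 receptor family, rose by 0.67 ± 0.16 (adjusted p = 0.0246 over probes), but its difference against control 3, 0.48, did not pass (adjusted p = 0.0701 over probes). Psmd13, a proteasome subunit gene, rose by 1 probe (0.91 ± 0.19, adjusted p = 0.0144 over probes) and not by its other probe (0.49 ± 0.21, adjusted p = 0.138), and against control 3 the first probe did not pass either (0.70, adjusted p = 0.0725 over probes). Sirt3, a mitochondrial deacetylase gene, and Pgghg, an enzyme gene, did not pass the test, at -0.48 ± 0.26 and -0.32 ± 0.19.

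**Figure D3:**
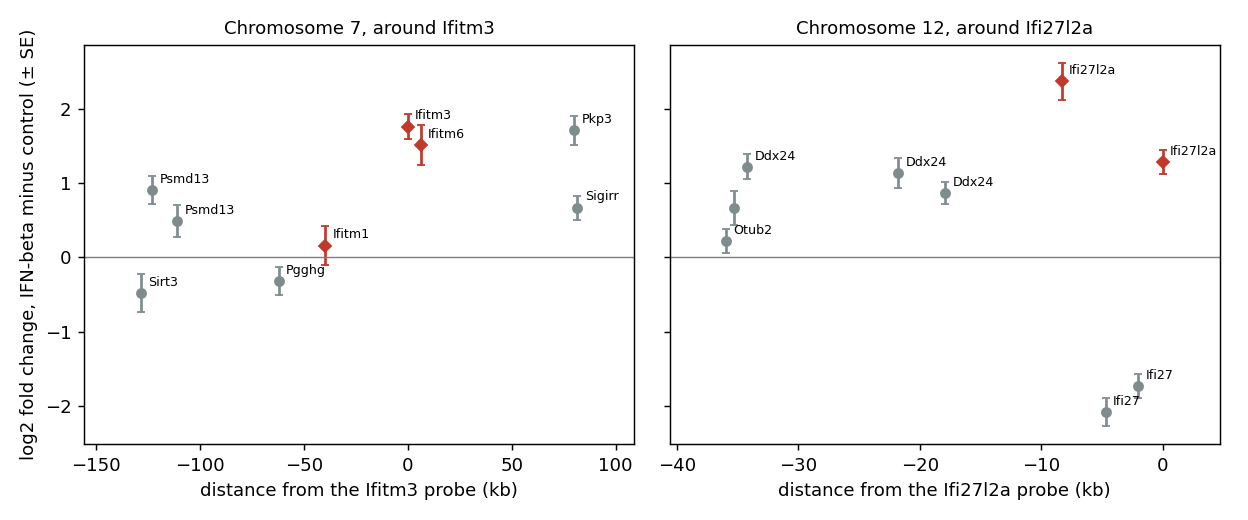
Log2 fold change of IFN-beta over control, with its standard error, by probe against the distance in kb from the Ifitm3 probe (left) and from the variant 1 probe of Ifi27l2a (right), with members as diamonds and other genes as grey circles; 1 probe without a gene symbol is unlabelled. Ifitm3 (1.76) and Ifitm6 (1.51) lie beside each other, Ifitm1 (0.16) lies apart from them, and the Ifi27 probes (-1.73 and -2.08) lie between the Ifi27l2a probes (1.28 and 2.37).

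Among further relatives, a list of 10 genes of the dispanin family, to which the IFITM genes belong, had 4 tested members, of which 1 rose and none fell, with a median change of 0.11. Among all genes tested 11.8% were called higher and 8.03% lower. Without control 3, 2 of the 4 were called higher and 1 lower, where 33.1% of all genes were called higher and 15.1% lower. The member that rose was Ifitm10, at 1.25 ± 0.26 (SE, limma adjusted p = 0.0152). Its tested probe measured -0.59, -1.22 and -1.40 on IFN-beta arrays 1, 2 and 3, against -2.11, -2.19 and -2.65 on controls 1, 2 and 3. The groups did not overlap on this scale. Before scaling they did overlap, and the processed signals were low. These were 163, 102 and 91.6 on IFN-beta arrays 1, 2 and 3, against 127, 115 and 48.7 on controls 1, 2 and 3. Against control 3 the change of Ifitm10 was 1.58 ± 0.32 (limma adjusted p = 0.0248), and against controls 1 and 2 it was 1.09 ± 0.25 (limma adjusted p = 0.016). Its 2 other probes were too dim to be tested. Tmem91 (-0.53 ± 0.19, limma adjusted p = 0.0916) and Prrt1 (-2.12 ± 0.68, limma adjusted p = 0.0639) did not pass, and Prrt1 gave -0.39 against control 3.

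Ifitm7, an IFITM gene that lies on chromosome 16 outside the cluster, was read differently by its 2 probes. By the probe at chr16:13983746-13983805 it measured 6.52, 6.87 and 6.81 on IFN-beta arrays 1, 2 and 3, against 4.67, 4.70 and 5.28 on controls 1, 2 and 3, without overlap. That is a rise of 1.85 ± 0.22 (limma over probes, adjusted p = 0.0012), and of 1.46 against control 3 (adjusted p = 0.00579 over probes). By the probe at chr16:13982912-13982971, which had the higher mean over the arrays before any test and so stood for the gene, it measured 6.40, 6.00 and 6.31 with IFN-beta, against 5.31, 5.21 and 5.92 in controls. That change was 0.75 ± 0.23 and did not pass (limma adjusted p = 0.0588). The last 30 bases of this second probe are a repeat of GT. With the mean of both probes, the change of Ifitm7 was 1.30 ± 0.21 (limma adjusted p = 0.0058). A pair of stretches from the first Ifitm7 probe and the Ifitm10 probe is shown because both probes rose; capitals mark identical bases, bases 31 to 60 and 26 to 55 of the probes.
Ifitm7: cacTCTtCaTgAACTTCTGcTGCCTGGGtT
Ifitm10: tcgTCTaCcTcAACTTCTGtTGCCTGGGcT
These stretches shared 22 of 30 bases.

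Of a list of 11 genes that lead from the interferon receptor to the transcription factors, 7 rose and none fell, with a median change of 1.24. In this comparison 11.8% of all genes tested were called higher and 8.03% lower. The receptor chains Ifnar1 (0.41 ± 0.17, limma adjusted p = 0.122) and Ifnar2 (0.24 ± 0.23, limma adjusted p = 0.48) and the kinases Jak1 (0.47 ± 0.19) and Tyk2 (-0.10 ± 0.25) did not pass the test. Stat2 and Irf9, parts of the factor that binds the ISRE, rose by 2.77 ± 0.23 and 1.17 ± 0.20 (limma adjusted p = 0.000326 and 0.00695). Irf7, the factor that amplifies type I interferon production, rose by 4.32 ± 0.30, and Irf1 by 1.24 ± 0.19 (limma adjusted p = 0.000144 and 0.0051). The feedback inhibitors rose as well, Socs1 by 3.52 ± 0.15 and Usp18 by 4.33 ± 0.27 (limma adjusted p = 2.57e-05 and 9.79e-05). Against control 3 the median was 0.90, and again 7 were called higher and none lower, where 7.97% of all genes were higher and 8.76% lower.

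Of 7 other interferon-induced antiviral factors that act at membranes, 5 rose and none fell, with a median of 1.19. For all genes tested the shares were 11.8% called higher and 8.03% lower. Bst2, or tetherin, which holds budding virus particles on the cell surface, rose by 2.77 ± 0.24 (limma adjusted p = 0.000391). Rsad2, or viperin, an enzyme bound to the endoplasmic reticulum and lipid droplets, rose by 4.20 ± 0.25 (limma adjusted p = 8.55e-05). Ly6e, a lipid-anchored surface protein, rose by 2.44 ± 0.23 (limma adjusted p = 0.000495). Shisa5 and Tmem140, which encode transmembrane proteins, rose by 1.19 ± 0.19 and 1.18 ± 0.17 (limma adjusted p = 0.00496 and 0.00319). Ch25h, the cholesterol 25-hydroxylase gene, did not pass, at -0.83 ± 0.41 (limma adjusted p = 0.189), and was at 0.15 against control 3. Ncoa7 did not pass either, at 0.53 ± 0.20 (limma adjusted p = 0.104). The changes of Ifitm3, Ifitm6 and Ifi27l2a were thus within the range of these 7 genes, below those of Rsad2, Bst2 and Ly6e. Differences between them and the members were not tested.

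A further list held 13 genes whose products modify IFITM3 or guide it through the cell. Of these 1 rose, 1 fell and 11 did not pass, with a median of 0.10, equal to that of all genes. Among all genes tested 11.8% were called higher and 8.03% lower, so these counts were no higher than those shares would give. Fyn, a kinase that phosphorylates IFITM3 near its endocytosis signal, rose by 1.11 ± 0.20 (limma adjusted p = 0.00914). Setd7, a methyltransferase that methylates IFITM3, fell by 2.09 on the log2 scale (difference -2.09 ± 0.42, limma adjusted p = 0.0138), and the difference was -1.75 ± 0.62 against control 3 (limma adjusted p = 0.114). Nedd4, the ubiquitin ligase that marks IFITM3 for degradation, gave -1.08 ± 0.79 (limma adjusted p = 0.36), with a difference of 1.04 against control 3 (limma adjusted p = 0.0352) and of -2.13 against controls 1 and 2. Its direction therefore depended on which controls were used. The genes of palmitoyl transferases, Zdhhc1, Zdhhc3, Zdhhc7 and Zdhhc20, lay between -1.02 and 0.58, and the depalmitoylase gene Abhd16a at 0.22, none past the threshold. Ap2m1, the subunit of the clathrin adaptor that recognises tyrosine signals, was at 0.38 ± 0.19, and Ap2a1 at -0.37 ± 0.18, neither of them called. Against control 3, Ap2a1 was called lower (-0.65 ± 0.15, limma adjusted p = 0.0344), and it was the only gene of this list to be so, with Fyn and Nedd4 called higher.

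**Figure D4:**
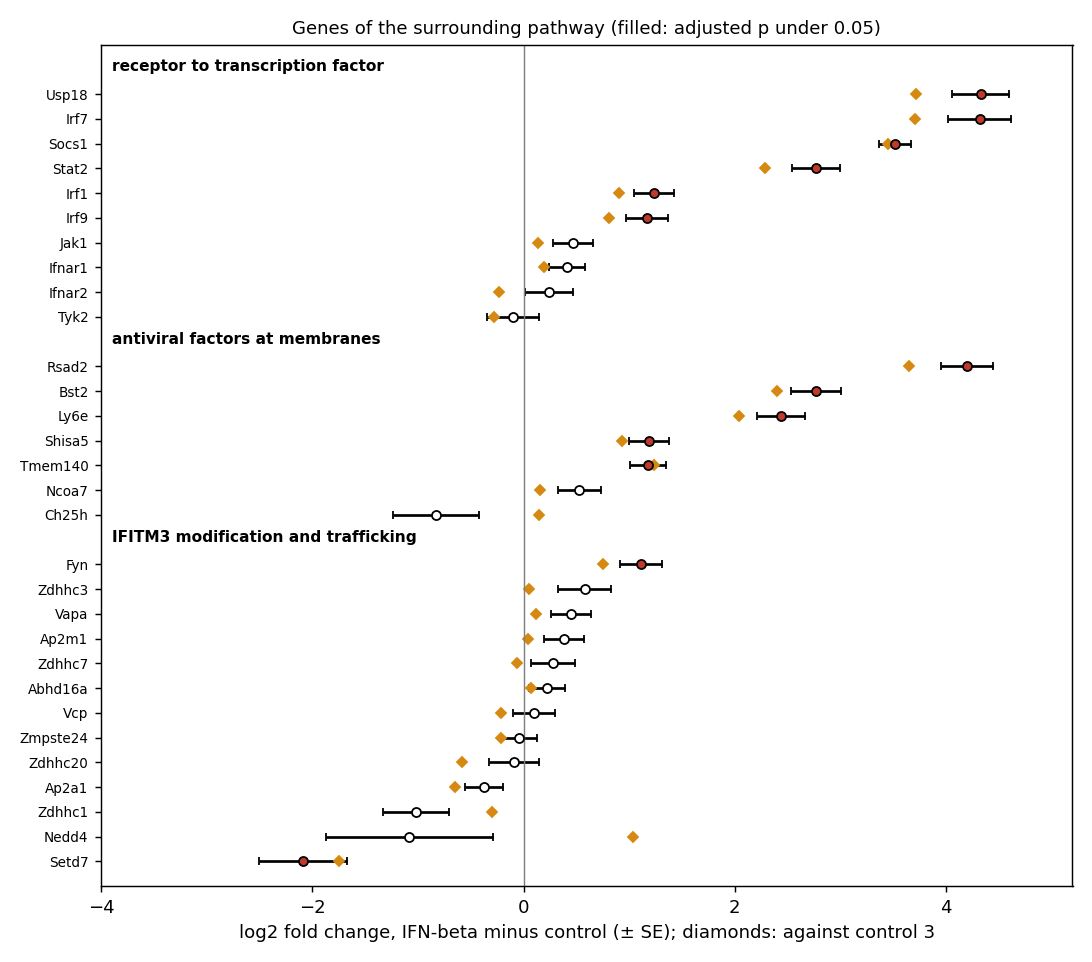
Log2 fold change of IFN-beta over control with its standard error for genes of 3 lists, with filled circles for genes past the adjusted p threshold of 0.05, open circles for the others and diamonds for the change against control 3 alone. Of the receptor-to-factor genes drawn 6 of 10 are filled, of the membrane factors 5 of 7, and of the genes that modify or guide IFITM3 2 of 13, 1 in each direction. Of all genes tested, 19.8% were called in either direction. Nedd4 has its diamond at 1.04 and its circle at -1.08.

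The genes whose pattern over the 6 arrays was most like that of a member were found by the root mean square difference of log2 values after each gene was centred on its own mean. This is a description over 6 arrays of 2 groups, among 14482 tested genes with a current symbol. Nearest to Ifitm3 were Uba7, the gene of the enzyme that activates the ubiquitin-like protein Isg15 (0.0589), and Gm11127 (0.0673). Nearest to Ifitm6 were Itgb2l, an integrin beta 2-like gene (0.0396), Fpr2, a formyl peptide receptor gene (0.0632), and Celsr3 (0.0635). Itgb2l measured 3.19, 3.11 and 2.78 on the IFN-beta arrays, against 1.26, 1.25 and 2.13 on the controls. It was picked for likeness to Ifitm6 over these same arrays, so its raised level on control 3 follows from that choice. Nearest to Ifi27l2a were Lat (0.0544), Lin28a (0.0584) and Gm7160 (0.0646). Nearest to Ifitm1 were Aqp6 (0.0492), F830208F22Rik (0.0537) and Sectm1b (0.0565). For Ifi27, outside the members, they were Plscr4, a phospholipid scramblase gene (0.0767), Dok4 (0.0868) and Rnd3 (0.0994).

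Markers of several cell types moved with the groups, and in such bulk samples fewer cells of a type and less RNA per cell cannot be told apart. The counts below stand beside 11.8% of all genes tested called higher and 8.03% lower. All 9 monocyte and macrophage markers, among them Csf1r and Lyz2, were well above background on every array. Of these, Ly6c2 (2.89) and Fcgr1 (2.20) rose and Cx3cr1 (-1.44) and Itgam (-0.72) fell, and the list's median level was 6.44 to 6.52 with IFN-beta and 5.59 to 5.99 in controls. Those medians are the values of Adgre1 with IFN-beta and of Ly6c2 in controls. Of 11 neutrophil markers, all above background on every array, 7 rose and none fell. S100a8, S100a9, Retnlg and Mmp8 did not pass, and Mmp8 was at -0.29, or -0.82 against control 3. The median level of the neutrophil list was 6.06, 6.28 and 5.75 on IFN-beta arrays 1, 2 and 3, against 4.06, 3.94 and 4.56 on controls 1, 2 and 3, so that control 3 was again the highest control. The values are those of Ngp. All 9 basophil and mast cell markers rose, with median levels of 1.84, 1.51 and 1.17 on the IFN-beta arrays, against -0.62, -0.82 and -1.11 on the controls. These medians are the values of Gata2. Every other marker of this list had control 3 as its highest control, such as Mcpt8 at 1.15, 1.09 and 1.93 on controls 1, 2 and 3. Of the progenitor markers 3 of 5 rose. The 11 fibroblast markers had a median level of -5.06, -4.10 and -3.77 on the IFN-beta arrays, against 5.39, 5.52 and -4.76 on controls 1, 2 and 3, and none of the 5 that could be tested passed. The defining markers Cd79a of B cells and Ncr1 of natural killer cells were not above background on any array. Among the remaining lists, 1 of 4 tested endothelial markers rose and 1 fell, 1 of 4 B cell markers rose, 1 of 4 T and natural killer cell markers fell, 3 of 5 plasmacytoid dendritic cell markers rose, and neither of 2 tested erythroid markers passed. The plasmacytoid list includes Bst2 (2.77), given above as a membrane factor, and its Siglech (-0.62) and Tcf4 (-0.40) did not pass. Erythroid Hba-a1 measured 7.06, 6.95 and -0.89 on controls 1, 2 and 3. Endothelial Emcn measured 1.06, 0.69 and -6.64. The part of any of these in the results for Ifitm3, Ifitm6 and Ifi27l2a was not tested. On control 3 the 5 fibroblast markers that could be tested were lower than with IFN-beta, by log2 differences of 0.88 (Col1a2) to 1.97 (Sparc), IFN-beta minus control 3. With spike-in scaling Ifi27l2a against control 3 was at 0.72 and, like Ifitm6, did not pass (limma adjusted p = 0.0513).

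**Figure D5:**
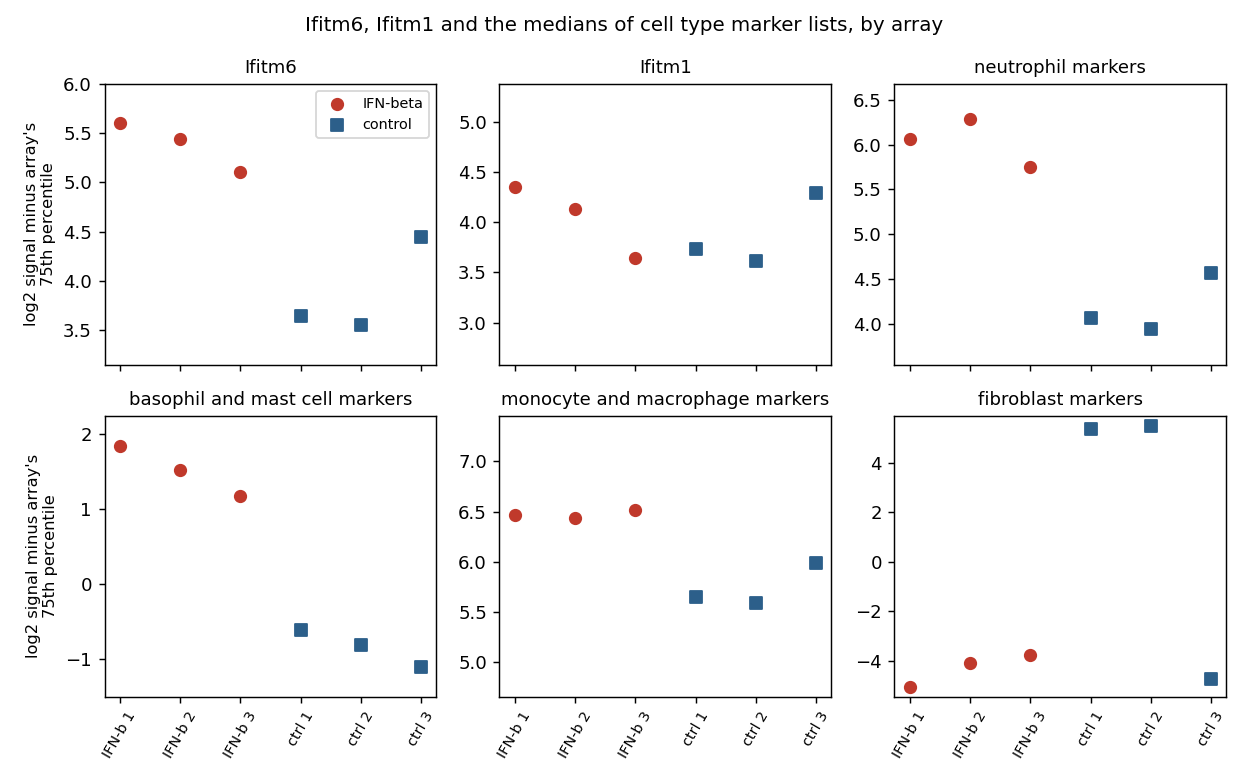
Level of Ifitm6 and Ifitm1 and the median level of 4 cell type marker lists on each array, on the same log2 scale relative to the 75th percentile, with IFN-beta arrays as circles and controls as squares; each panel has its own vertical axis. The median of the neutrophil list (5.75 to 6.28 with IFN-beta, 3.94 to 4.56 in controls), which is the level of Ngp, separates the groups as Ifitm6 does. So do the medians of the basophil and mast cell list (1.17 to 1.84, against -1.11 to -0.62) and of the monocyte and macrophage list (6.44 to 6.52, against 5.59 to 5.99). Of all genes tested, 40.2% had groups that did not overlap. The fibroblast list is high on controls 1 and 2 only.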

How the data were processed

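Gene expression of 3 IFN-beta and 3 control samples was measured with a single dye on Agilent arrays. Spot intensities come from the deposited scanner output of Feature Extraction 12.0.3.1, per the file headers, as a processed signal beside the mean signal and its local background, with no normalization between arrays. The authors also deposited a table of log2 values; the submitters' processing notes name limma, and the exact normalization is not given in the sources used here. It served as an alternative only.

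From these files, control spots and spots marked as outliers were left out, spots of a probe were averaged, and log2 of the processed signal minus the array's 75th percentile was analysed. Probes entered the test if all arrays of either group read them well above background, and the probe of highest overall mean stood for its gene. limma 3.58.1 (lmFit and eBayes, R 4.3.3, with version 1.17.8 of the package data.table) compared the groups without covariates, with Benjamini-Hochberg adjustment over 19500 genes, or over 29794 probes where a single probe is given. Control 3 alone and controls 1 and 2 were set against IFN-beta in a fit with 3 coefficients, which assumes that control 3 varies like the others. A single slide's comparison rests on 1 IFN-beta array in the same way. Because Ifitm2 was not analysed here, 6 pairs of members were compared in place of the planned 10. The number of arrays limits the precision. The fit was tested on simulated data with independent noise on every array. These data held no differences between controls, slides or array brightness, so the test does not cover such differences.

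Current symbols were looked up in RefSeq (GRCm38.p6, for names only) for 32994 probes by accession, and other names are the files'. Probe positions are those of the files (mm9). The members and gene lists were chosen with earlier results of these data known. Genes named are the members, the list members called or needed for their role, the 3 genes most like each member, and genes with a probe within 100000 bases. Some of these genes are left out of the text. Alternatives were other normalizations and background corrections, the deposited table, other filters and probe summaries, eBayes with trend, array weights, slide and replicate blocks, and leaving out each array. Same-numbered samples of the 2 groups deviated together only weakly (r = 0.0719, 0.0222 and 0.073), so the replicate numbers were not taken to pair them.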

Additional observations from a re-analysis of the deposited data

How the results depend on the processing

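The rises of Ifitm3, Ifitm6 and Ifi27l2a kept their direction under all 20 alternatives, with changes of 1.46 to 1.87, 1.20 to 1.79 and 0.97 to 1.82, and Ifi27 stayed called lower under all 20 (-2.04 to -1.68). Within slide 1, which leaves 1 IFN-beta array, Ifitm3 (1.76, limma adjusted p = 0.0601), Ifitm6 (1.73, 0.144) and Ifi27l2a (1.34, 0.0905) lost the call, and with the slide as a block Ifitm6 did (1.73, 0.0641). Ifitm1 was not called under any alternative and changed sign under quantile normalization (-0.005) and spike-in scaling (-0.15). The number of genes called, 3866, became 1697 with no filter on dim probes, 12734 with array weights (whose estimation gave a convergence warning), 1040 with the slide as a block, 369 within slide 1 and 1993 with controls 1 and 2 averaged as 1 sample, where Ifitm3 (1.71), Ifitm6 (1.37) and Ifi27l2a (1.24) remained called. Leaving out each array in turn gave 1830 to 9390 genes called, the highest without control 3 and the lowest without control 1, with 2014 when control 2, 1855 when IFN-beta 2 and 2050 when IFN-beta 3 was left out; the members' changes then ranged from 1.70 to 1.87 (Ifitm3), 1.35 to 1.79 (Ifitm6), 1.22 to 1.36 (Ifi27l2a) and 0.0035 to 0.37 (Ifitm1). With spike-in scaling, 5953 genes in place of 3264 were called against control 3 and 6094 in place of 9390 against controls 1 and 2, the median of all genes moved to -0.21, the higher calls were 26.5% of all calls in place of 59.5%, and Ifi27l2a against control 3 was 0.72 (limma adjusted p = 0.0513). With normexp and percentile scaling the higher calls were 69.9%. With the replicate block 3271 genes were called and no call of a member changed: Ifitm3 1.76 (limma adjusted p = 0.00558), Ifitm6 1.51 (0.0322), Ifi27l2a 1.28 (0.0122) and Ifitm1 0.16 (0.728). In deviations from its group's mean, each IFN-beta array correlated best with the control of its own number, but only weakly (r = 0.0719, 0.0222 and 0.073). In the levels themselves, every IFN-beta array correlated best with control 3. Ifitm7 passed the threshold under 9 of 20 alternatives, from 0.45 to 1.71, and Ifitm10 lost the call with no filter on dim probes (1.25, limma adjusted p = 0.0689) and within slide 1 (1.73, 0.0791). The dispanin relatives had 0 to 2 called higher and 0 to 2 called lower, the genes that modify or guide IFITM3 0 to 6 called higher and 0 to 3 called lower, the receptor-to-factor list 4 to 10 higher, and the membrane factors 2 to 6 higher. The causes of these shifts were not tested.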
